A study of Mus musculus with 4 samples.

Results

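Ribosomal proteins of the cytosol, together with ribosomal RNA, build the small and large subunits of the ribosome, and their genes were followed here as a module of accessible chromatin. Members were the protein-coding genes on mouse chromosomes 1 to 19, X and Y whose symbol is Rpl or Rps followed by digits, with Rplp0, Rplp1, Rplp2 and Rpsa, leaving out Rps6k, Rps19bp and the Rpl symbols that end in ps or rt. The rule gave 89 members of 21883 genes. Of these, 31 encode proteins of the small subunit, 43 proteins of the large subunit and 3 the proteins of the stalk. The other 12 are paralogs or retrocopies: Rpl3l, Rpl7l1, Rpl10l, Rpl22l1, Rpl32l, Rpl36al, Rpl39l, Rps27l, Rps27rt, Rps23rg1, Rpl34-ps1 and Rpl31-ps12. The last pair and Rps27rt stayed in because their symbols fall outside the wording of the exclusions. Fau, which also encodes a ribosomal protein, does not match the symbol rule and was described with the translation factors.

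The cells, of the embryonic stem cell line 2TS22C from mouse, grew in 2i serum/LIF medium. In both groups the labels give DOX treatment, silenced endogenous SOX2 and a lentivirus. The virus supplied SOX2 in one group and SOX17FNV, an engineered form of the endoderm factor SOX17, in the other. The study set the open chromatin of the cells that the engineered factor sustained beside that of the cells rescued with SOX2. There were 2 libraries for each factor, and their titles name them as biological replicates. The labels give 1 cell line, do not say whether the replicates were separate transductions, and name no promoter for the virus, so p-values measure the spread between these libraries. ATAC-seq reads mark where a transposase could cut, which is where DNA is not wrapped in closed chromatin.

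The data were 1 list of called peaks per library. The SOX17FNV lists held 120341 and 92851 peaks and the SOX2 lists 123214 and 96500. The files give no read totals. The pileup, the number of overlapping fragments at a summit, was solved from the deposited values, and the genome-wide background pileup ran from 3.27 to 5.02. Peaks of the 4 lists that overlapped were merged into 170898 regions, of which 57783 were called in every library and are called shared. All 10 stem cell markers examined, Pou5f1 and Nanog among them, had a called region in every library, and so did 6 of the 10 feeder fibroblast markers (Col1a1, Col1a2, Thy1, Fbn1, Pdgfrb and Twist1). Col3a1 was called in 2 libraries, and Postn, Dcn and Lum in none. By the ranking described later, the 6 had a median percentile of 45.6 and the stem cell markers 91.1, and the 6 differed between the groups by a median of -0.29 on the log2 scale, with 0 past the limma threshold used later.

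Ribosomal protein genes are among the most actively transcribed genes of growing cells, and nearly all of the proteins are needed in equal number. In mammals their messages carry a 5′ terminal oligopyrimidine tract, a run of C and T at the very start that ties translation to the mTOR pathway. Transcription starts within that run, at an initiator rich in pyrimidines, and binding words for ETS factors, SP1 and YY1 lie close by. Many of the genes also carry small nucleolar RNA genes in their introns.

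The promoter stretches below are shown for 7 members whose regions the results turn on, taken from the RefSeq promoter table for GRCm38.p6, whose coordinates are those of mm10. Each runs 5′ to 3′ on the strand of the gene over 90 bases before the listed start and 10 from it on. Capitals mark CCGGAAG (ETS), GGGCGG (SP1), a TATA word in the usual window, the word CTTT at the start (TCT initiator) or the SOX words, which are ACAATG and its close variant ACAAAG, on either strand except for TATA and CTTT. Rps18 (chr17:33955656-33955755, minus strand) and Rpl41 (chr10:128549159-128549258, minus strand) had the strongest regions of either subunit in the pileup ranking described next, and Rpl37 (chr15:5116523-5116622, plus strand) had a strong region at its start. The strongest region of Rps18 lay at the other end of the gene and not at the start printed here. Rpl12 (chr2:32961622-32961721, plus strand) and Rps9 (chr7:3703951-3704050, plus strand) also had their strongest region past the other end of the gene. Rps24 (chr14:24490588-24490687, plus strand) differed most between the groups, and Rps4x (chrX:102189382-102189481, minus strand) had the weakest region among the genes that are not paralogs.
Rps18: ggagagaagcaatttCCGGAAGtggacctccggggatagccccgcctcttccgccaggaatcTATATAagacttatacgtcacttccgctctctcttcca
Rpl41: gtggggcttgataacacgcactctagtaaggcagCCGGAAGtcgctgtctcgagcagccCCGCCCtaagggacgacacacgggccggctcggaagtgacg
Rpl37: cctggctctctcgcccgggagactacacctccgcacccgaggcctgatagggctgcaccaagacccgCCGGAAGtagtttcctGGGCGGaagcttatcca
Rpl12: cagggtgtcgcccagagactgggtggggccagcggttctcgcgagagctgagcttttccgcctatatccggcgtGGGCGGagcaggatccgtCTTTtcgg
Rps9: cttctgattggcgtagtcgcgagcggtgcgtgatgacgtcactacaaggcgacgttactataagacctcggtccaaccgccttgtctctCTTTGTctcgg
Rps24: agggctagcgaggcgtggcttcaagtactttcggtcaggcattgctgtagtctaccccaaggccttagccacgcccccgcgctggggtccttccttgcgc
Rps4x: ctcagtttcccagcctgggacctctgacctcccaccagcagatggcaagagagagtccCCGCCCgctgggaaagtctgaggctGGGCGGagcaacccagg

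Rps18 held an ETS word and a TATA word, Rpl41 and Rpl37 an ETS and an SP1 word, and Rps4x a pair of SP1 words. Rpl12 and Rps9 had CTTT at the start, and in Rps9 these letters are also part of the reverse complement of ACAAAG. None of the words was found in the stretch of Rps24.

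Over the 300 bases from 250 before to 50 after each start, 68 members had 80 listed promoters, and the table held 21262 promoters in all. CTTT, on the sense strand with its first base at positions -5 to 6, was found in 16 of the 80 member promoters (20%) and in 4.73% of all promoters. The genes with it included Rpl7a, Rpl12, Rpl15, Rpl18, Rpl27a, Rps6, Rps9, Rps10 and Rps27. At the start base itself, 43.8% of member promoters had C or T against 23.4% of all. The ETS word CCGGAAG, counted on both strands, was found in 33.8% of member promoters and 11.6% of all. Promoters of the mitochondrial ribosomal protein genes, whose products serve the ribosome inside mitochondria, held that word in 34.7% and CTTT at the start in 2.67%. AAGATGG (YY1, both strands) was found in 15.0% of member promoters against 6.24% of all, GGGCGG (SP1, both strands) in 57.5% against 46.2%, and the palindrome of NRF1 in 2.50% against 1.33%. A TATA word on the sense strand, with its first base at -40 to -20 and spelled TATAAA in its usual form, TATATA in the form of Rps18 or otherwise TTTAAA, was found in 6.25% against 4.75%. Either of the SOX words, counted on both strands, was found in 22.5% of member promoters and 25.7% of all. These are letter matches and say nothing of binding. The words can overlap, as in Rps9.

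Open chromatin was called at nearly every member in every library. Of the 89 members, 86 (96.6%) had a called region within the gene span or 1 kb of it in each of the 4 libraries, against 74.2% of all protein-coding genes. The 31 small subunit genes, the 43 large subunit genes and the 3 stalk genes were all called in every library, and so were 9 of the 12 paralogs. Rps27rt, Rpl32l and Rpl31-ps12 had no peak in any library. All 78 mitochondrial ribosomal protein genes were called in every library too, so presence in all lists was shared by both ribosomes. Of 318 annotated ribosomal protein pseudogenes, a class made up mostly of intronless copies, 32 (10.1%) were. How reads that match a gene and its copies were placed is not given in the sources used here.

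The 204 regions at members were mostly shared. All libraries called 147 of them (72.1%), against 33.8% of all regions. Small subunit genes had 55 of 81 regions shared and large subunit genes 77 of 101. A member had a median of 2 regions and at most 6, and 13 members had 1.

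For each gene the strongest shared region in its window, by mean log2 level, was taken as its lead region. Its level is the summit pileup divided by the median pileup of all shared regions of that library, and its percentile is its rank among the 57783 shared regions. Lead regions were found for 86 members. They were 85 distinct regions, because neighbouring members can share one. With SOX17FNV their median level was 2.00 and 2.15, and with SOX2 it was 1.86 and 2.02, from median pileups of 66, 51.5, 65 and 56.5. Members thus stood at about the same height above the median region in all 4 libraries. The median percentile was 91.8, against 80.9 over all genes with a lead region and 82.9 for the mitochondrial ribosomal protein genes. Above percentile 90 were 50 of 86 lead regions (58.1%), against a background of 29.0% over all genes. At 29 of the 86 members the lead region also lay in the window of another protein-coding gene, so it cannot be given to one of the pair.

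**Figure D1:**
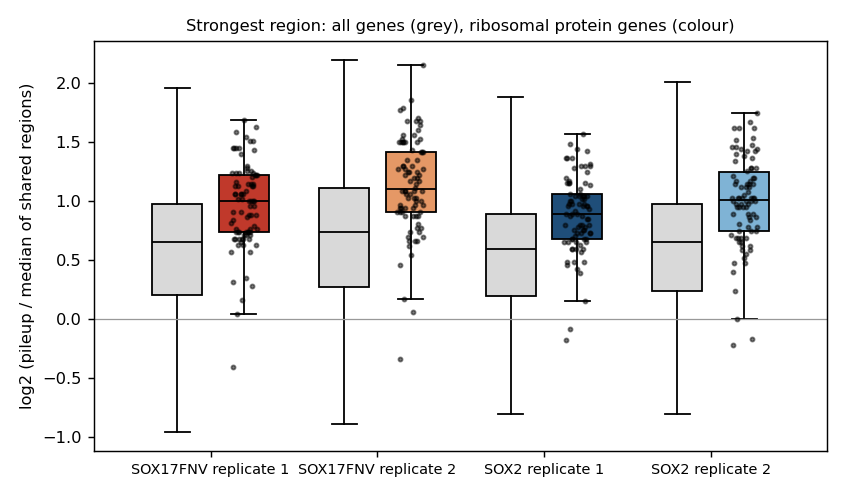
Level of the lead region, as log2 of summit pileup over the library's median shared region, in each library. Grey boxes are all protein-coding genes with a lead region, coloured boxes and points the 86 ribosomal protein genes; boxes span the quartiles, whiskers reach 1.5 times that range, and outliers of the grey boxes are not drawn. The member medians, at 0.89 to 1.10, lie above those of all genes in every library.

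The strongest lead region belonged to Rpl41, which encodes the smallest protein of the large subunit. Its pileups were 94 and 77 with SOX17FNV and 104 and 89 with SOX2, at a mean percentile of 99.8. The region (chr10:128547184-128549387) covers the whole gene, start and end together, and reaches the window of Zc3h10. Rpl3, whose protein lies near the peptidyl transferase centre, followed with pileups of 102 and 107 against 87 and 94, at levels of 3.77 ± 0.967 with SOX17FNV and 2.92 ± 0.616 with SOX2 (SD, n = 2). The groups overlapped. Its lead region (chr15:80074948-80077481) lies beside the gene span and not over it.

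Rps18, a protein of the head of the small subunit, had pileups of 94 and 77 with SOX17FNV and of 94 and 81 with SOX2. Relative levels were 3.03 ± 0.254 and 2.79 ± 0.146 (SD, n = 2), and the groups overlapped. This lead region (chr17:33950706-33952274) lies at the 3′ end of the gene, near the start of B3galt4. The region at the start of Rps18 stood at percentile 91.0. Rpl4 reached pileups of 106 and 87 against 95 and 73, the highest single pileup of any member in SOX17FNV replicate 1. The lead region of Rpl4 also lies at its 3′ end, near the start of Snapc5. Rps19, Rpl13a, Rpl10 and Rps29 were also among the 10 highest members, with mean percentiles from 99.0 to 99.5. Rps19 is the gene most often mutated in Diamond-Blackfan anaemia, an inherited failure of red cell production, and its pileups were 89, 75, 83 and 86 in the library order used throughout (SOX17FNV replicates 1 and 2, then SOX2 replicates 1 and 2).

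The weakest member with a lead region was the retrocopy Rpl34-ps1, with pileups of 25, 19, 31 and 24 and a mean percentile of 34.0. Its level was below the median shared region in all 4 libraries. The weakest gene that is not a paralog was Rps4x, the X-linked copy of a small subunit gene, with pileups of 34, 27, 33 and 28 and a percentile of 51.3. It stood alone there: the next such genes were Rpl37a at 69.6 and Rpl6 at 70.5. Rpl39l, a paralog of Rpl39 known from the testis, lay at 61.2. Rps23rg1, Rps6, Rps3, Rpl26 and Rpl36a completed the 10 lowest, at 74.3, 77.6, 78.9, 79.5 and 79.9. Rps6 is the protein whose phosphorylation is used as a readout of mTOR signalling.

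**Figure D2:**
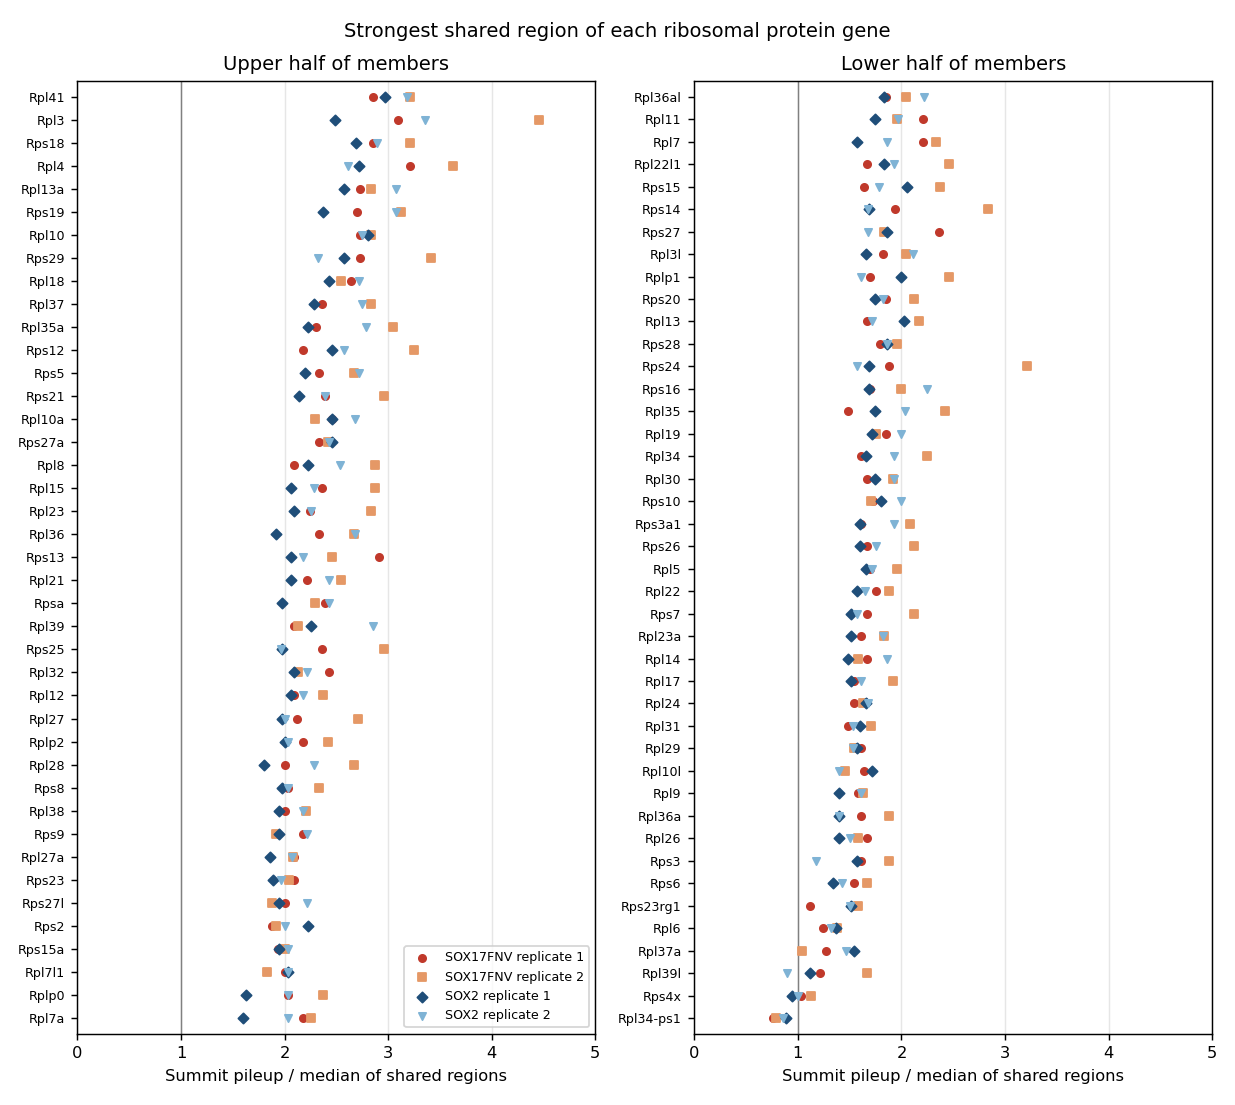
Summit pileup of the lead region divided by the library's median shared region (vertical line at 1) for 83 of the 86 members, ordered by mean percentile; each point is 1 library. Rpl34-ps1 lies below 1 in all 4 libraries and Rps4x around 1, and the orange squares of SOX17FNV replicate 2 often lie farthest to the right, as they did at 53 of all 86 members.

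Of the 9 paralogs with a lead region, 5 ranked below the gene they resemble and 4 above it. Rpl3 stood at percentile 99.8 and Rpl3l, a muscle paralog, at 89.98. Rpl39 stood at 96.2 against 61.2 for Rpl39l, and Rpl10 at 99.4 against 80.1 for the intronless Rpl10l. The retrocopies Rps23rg1 and Rpl34-ps1, at 74.3 and 34.0, stood below Rps23 at 92.5 and Rpl34 at 88.4. The order was the other way for Rps27l at 92.5 over Rps27 at 90.3, Rpl7l1 at 92.1 over Rpl7 at 91.0, Rpl22l1 at 90.8 over Rpl22 at 85.3, and Rpl36al at 91.8 over Rpl36a at 79.9. The pileups of Rps27l (66, 45, 68 and 62) and Rps27 (78, 44, 65 and 47) overlapped, as did those of Rpl7l1 and Rpl7. The lead regions of Rpl3l, Rpl7l1 and Rpl36al also lay in the windows of Msrb1, 2310039H08Rik and Mgat2.

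The stalk genes, whose proteins recruit the translation factors, were close to one another, with percentiles of 91.8 for Rplp0, 89.9 for Rplp1 and 95.1 for Rplp2. Rpl5 and Rpl11, which with 5S ribosomal RNA form the particle that restrains Mdm2, stood at 86.6 and 91.6. The 9 genes of the Diamond-Blackfan list had a median percentile of 88.1, below the 91.8 of all members, and Rps19 stood highest at 99.5. The 30 members that hold small nucleolar RNA genes in their span, 59 such genes in all, had a median of 95.3 and the members without them 90.7. Rpl4 held the most, with 5. By fold enrichment, the measure described next, the order was the reverse, with median percentiles of 33.1 for members with them and 46.4 for those without.

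By the deposited fold enrichment the same regions ranked low. Fold enrichment divides the summit by the local background, and by it the lead regions had a median percentile of 42.1, against 71.8 for all genes and 81.0 for the mitochondrial ribosomal protein genes. The local background at member lead regions was a median of 3.72 times the genome-wide background, against 1.96 times over all genes and 2.02 times for the mitochondrial ribosomal protein genes. By library the member medians were 4.11 and 3.45 times with SOX17FNV and 4.35 and 2.80 times with SOX2. Rpl12 had the lowest rank by fold, percentile 2.52 against 95.4 by pileup. Its pileups of 69, 57, 72 and 61 stood over local backgrounds of 32.5, 22.1, 35.6 and 25.6. Rpsa, Rpl38 and Rpl10a followed at 6.20, 7.47 and 10.05 by fold. The stem cell markers were alike in this, with a local background of 3.90 times the genome and a median percentile of 22.1 by fold and 91.1 by pileup. Only 5 members ranked higher by fold than by pileup, and all were paralogs or retrocopies (Rpl34-ps1, Rps23rg1, Rps27l, Rpl10l and Rpl39l).

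**Figure D3:**
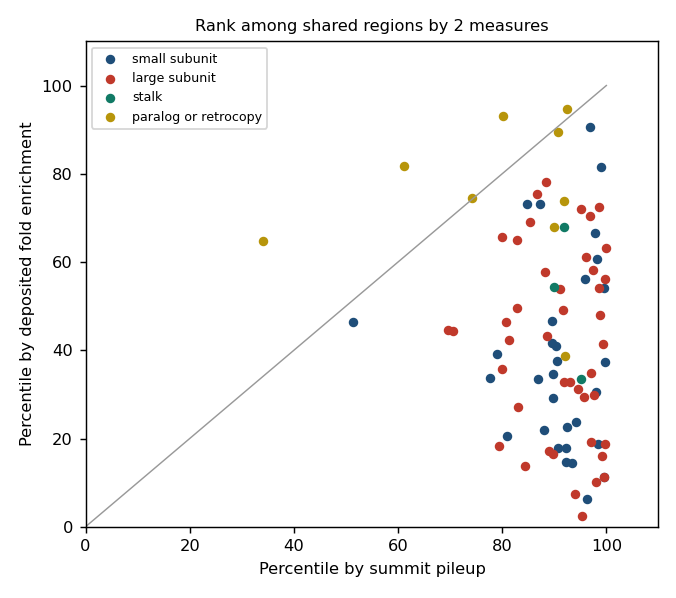
Mean percentile of each member's lead region among the shared regions by summit pileup (horizontal) and by deposited fold enrichment (vertical), coloured by class. All small subunit, large subunit and stalk genes lie below the diagonal, and the 5 points above it are paralogs or retrocopies.

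Lead regions often lay at the 3′ end of the gene and not at its start. This arrangement was looked for after the values had been seen, so its counts are a description. It could be read for the 68 members with a listed start. At the start, 62 of them (91.2%) had a shared region within 500 bp that did not also reach the 3′ end. The share was 61.6% of the 17491 genes with a listed start. Another 2 members (2.94%) had 1 region over both start and end, as did 1.11% of all these genes. The summits of the 62 start regions, each a mean over the 4 libraries, lay at a median of -63.5 bp from the start, on its upstream side. Of these, 49 were within 150 bp of it. An end region was a shared region apart from any at the start that overlapped the zone from 500 bp inside to 1 kb past the 3′ end of the span. Its summit could lie beyond that zone. Such a region was found at 41 of 68 members (60.3%). The background was 11.6% over all genes with a listed start. It was 14.8% of the 4248 genes with a span of 2 to 10 kb and 18.8% of 69 mitochondrial ribosomal protein genes. Of the translation factors regulated like ribosomal protein genes, 7 of 12 had one, and of the nucleolar assembly genes 6 of 14. With only peaks of a -log10 q of at least 10, 9 members (13.2%) had one, against 3.01% of all genes, and among the 50000 strongest peaks of each list 27 did (39.7%), against 6.31%.

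By pileup, the end regions ranked about as high as the start regions. Their median percentile was 89.9, and that of the start regions 89.1. Of the 40 members with both (58.8%, against 8.96% of all genes with a listed start), the end region was the stronger in 20. It was the lead region of 20 of 65 members (30.8%), against 6.15% of all genes. In 40 of 41 cases the summit, as a mean over the 4 libraries, lay past the end of the span. The median distance over the 41 was 911 bp (quartiles 629 and 1339 bp). At 31 of the 41 members no other protein-coding gene started within 500 bp of the end region, and these 31 had a median percentile of 88.1, from 65.6 to 99.3. At the other 10 such a start was near, as with B3galt4 past Rps18, Snapc5 past Rpl4 and Lmln past Rpl35a. The 31 end regions had a median width of 1504 bp, and the start regions 955 bp. End regions as a set were not ranked by fold enrichment. Rpl12, Rpsa, Rpl38 and Rpl10a, the lowest members by that measure, all had their lead region at the 3′ end.

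Rpl12 showed the pattern plainly. Its start region had pileups of 54, 45, 50 and 53, and its end region (chr2:32963992-32966357) pileups of 69, 57, 72 and 61, the end above the start in every library. No other protein-coding start was near. The mean of the 4 libraries' summits lay 1184 bp past the span, and the summits were spread over 995 bp. Rps9 had 39, 50, 45 and 39 at the start and 72, 46, 68 and 62 at the end (chr7:3706317-3709536), where SOX17FNV replicate 2 was the exception in order. The end summits of Rps9 were spread over 1991 bp, so its end pileups belong to different places in the region. Rpl10a, another large subunit gene, had 54, 63, 65 and 57 at the start and 81, 55, 86 and 75 at the end. Rpl10 was strong at both, with 90, 68, 98 and 77 at the start and 105, 67, 85 and 76 at the end. Rps25 was of the other kind, with 78, 71, 69 and 55 at the start and 43, 36, 47 and 33 at the end. Members with no end region included Rps24, Rps4x, Rps13, Rpl37, Rpl37a and Rpl39.

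**Figure D4:**
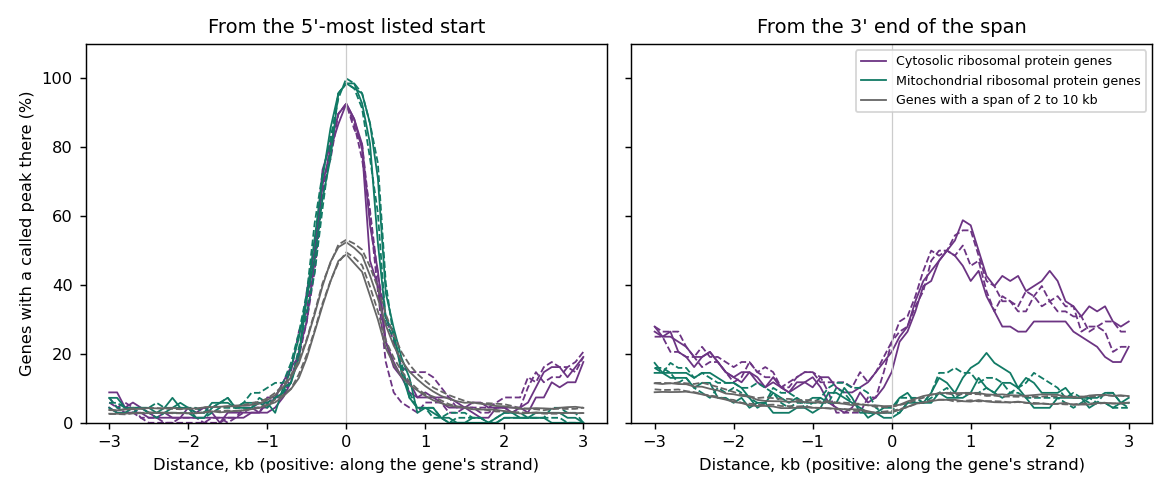
Percentage of genes with a called peak at each distance from the 5′-most listed start (left) and from the 3′ end of the span (right), in steps of 100 bp; solid lines are SOX17FNV and dashed lines SOX2 libraries. At 1 kb past the 3′ end, 41.2% to 57.4% of the 68 ribosomal protein genes were covered, against 6.14% to 8.64% of genes with a span of 2 to 10 kb.

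The cover past the 3′ end was also read by group. At 1 kb past the end, 57.4% and 41.2% of the members were under a peak with SOX17FNV, and 45.6% and 55.9% with SOX2. The groups overlapped. The median log2 difference between SOX17FNV and SOX2 was 0.04 over the 41 end regions and 0.14 over the 62 start regions, against 0.08 and 0.06 over all genes.

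Few regions at members were called in 1 group alone. SOX17FNV-only regions, which both SOX17FNV lists and neither of the SOX2 lists held, numbered 1 of 204 (0.490%), against 2.78% of the regions at all protein-coding genes and 3.06% of all regions. SOX2-only regions numbered 7 (3.43%), against 3.70% and 4.09%. The SOX17FNV-only region lay in Rps15a (chr7:118110874-118111171), with pileups of 32 and 30 and folds of 1.90 and 2.58. Rps15a also had a SOX2-only region, at the edge of its window (chr7:118117135-118117472, pileups 40 and 27). Other SOX2-only regions were at Rpl7, Rps6, Rpl13, Rps26 and Rpl3. That at Rpl3 (chr15:80078409-80078864) had pileups of 70 and 53 but folds of 1.56 and 1.56, over local backgrounds of 44.4 and 33.6. Over all SOX2-only regions the median pileups were 20 and 18. Those at members were thus called at high pileups and low folds, 1.56 to 2.24. A SOX17FNV peak lay 77 bp from the Rpl3 region in replicate 1 and 1058 bp from it in replicate 2. Leaving out a library loosens the rule, since 1 list then stands for its group, and no share of all regions is given for the counts that follow. SOX17FNV-only regions numbered 8 and 5 with replicate 1 or 2 of SOX17FNV left out, and 5 and 2 with replicate 1 or 2 of SOX2 left out. SOX2-only regions numbered 15 and 7 without SOX17FNV replicate 1 or 2, and 20 and 11 without SOX2 replicate 1 or 2.

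No member's lead region passed the test between the groups. With limma over all 57783 shared regions and Benjamini-Hochberg adjustment, 0 of 86 members passed an adjusted p of 0.05 in either direction. Among all shared regions 516 were higher with SOX17FNV (0.893%) and 710 higher with SOX2 (1.23%). Of the 15991 genes with a lead region, the lead region was higher with SOX17FNV at 61 (0.381%) and with SOX2 at 63 (0.394%). At an unadjusted limma p under 0.05, in either direction, there were 7 members (8.14%). This was close to the 9.07% of all genes with a lead region and against 13.5% of all shared regions. All 7 were higher with SOX17FNV, but no split by direction is given for all genes, so this is not read as a trait of the members. Above 0 were 63 members, with 23 below, against 9909 and 6082 of all genes with a lead region. The median log2 difference was 0.09 over the members and 0.06 over all genes. After quantile normalization it was 0.02 for both. Over the members it was -0.0074 when SOX17FNV replicate 2 was left out and -0.0094 when SOX2 replicate 1 was, beside -0.0020 and -0.035 over all genes. With SOX17FNV replicate 1 left out it was 0.17, beside 0.099 over all genes. In that setting 3 members (Rpl3, Rps14 and Rps24) passed as higher with SOX17FNV, as did 1.02% of all shared regions, while 1.68% of the regions and 0 members passed as higher with SOX2. With 2 libraries against 2, an exact permutation test of 1 region cannot give a p below 0.333.

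With all 4 libraries, groups that did not overlap were about as frequent among members as elsewhere. Both SOX17FNV libraries were above both SOX2 libraries at 25 members (29.1%), against 26.0% of all lead regions, and the reverse held at 9 (10.5%), against 13.7%. These counts rest on which libraries are in them: without SOX17FNV replicate 1 they were 55 and 14 of 86, or 64.0% and 16.3%, against 49.1% and 24.6% of all lead regions. Leaving out SOX17FNV replicate 2 gave 28 and 21 (32.6% and 24.4%, against 32.6% and 33.5%). Leaving out SOX2 replicate 1 gave 22 and 30 (25.6% and 34.9%, against 28.7% and 38.4%), and leaving out SOX2 replicate 2 gave 46 and 13 (53.5% and 15.1%, against 41.6% and 27.6%). SOX17FNV replicate 2 was the highest of the 4 libraries at 53 of 86 members (61.6%), and at 44.6% of all genes with a lead region. SOX2 replicate 1 was the lowest at 48 (55.8%), against 38.7%. The part of these 2 libraries in the differences was not tested beyond leaving each of them out. The counting error alone gave a median SE of 0.19 on the log2 scale, and 61 of 86 members differed by less than their own counting SE.

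**Figure D5:**
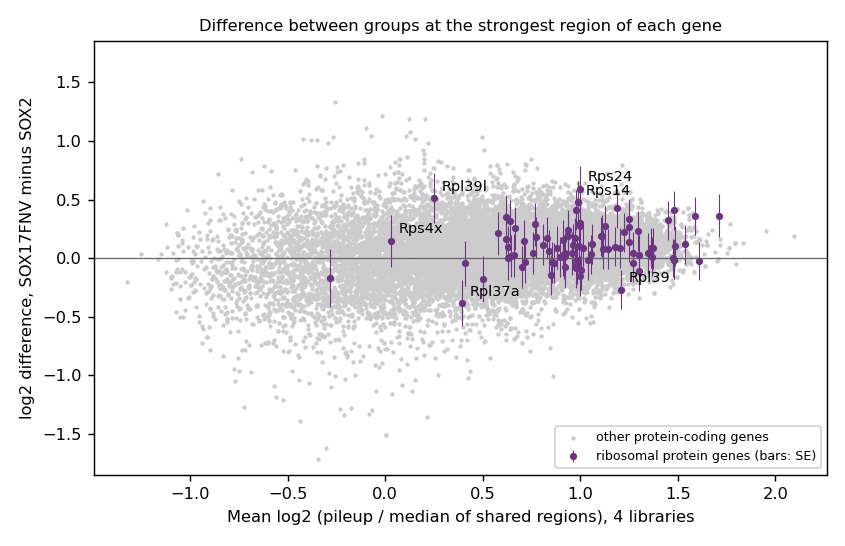
Log2 difference of the lead region, SOX17FNV minus SOX2, against its mean log2 level over 4 libraries; purple points are ribosomal protein genes with limma's standard error and grey points all other protein-coding genes. The members lie to the right of most genes and between -0.38 and 0.59.

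The largest difference was at Rps24, a small subunit gene and another gene of Diamond-Blackfan anaemia. Its pileups were 62 and 77 with SOX17FNV and 59 and 44 with SOX2, at levels of 2.54 ± 0.940 and 1.63 ± 0.0808 (SD, n = 2). The groups did not overlap, but SOX17FNV replicate 2, at 3.21, stood far above the other 3 libraries, at 1.88, 1.69 and 1.57. The log2 difference was 0.59 (SE 0.190, limma adjusted p 0.0988). Without SOX17FNV replicate 2 it was 0.20 (limma adjusted p 0.848), and without SOX17FNV replicate 1 it was 0.96 and passed (limma adjusted p 0.000330). By the deposited fold enrichment in place of the pileup, with the lead region chosen anew by fold, the difference was -0.12. Over chromosome 14 as a whole, shared regions were 1.30 times as high with SOX17FNV, and centred on that chromosome the difference at Rps24 was 0.22. Rpl15, the other member on chromosome 14, differed by 0.27 (SE 0.169, limma adjusted p 0.530). The part of the chromosome in these values was not tested further.

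Next came Rpl39l at 0.51, Rps14 at 0.48, Rps25 at 0.43 and Rpl7 at 0.41. Rps14 is the small subunit gene lost in the 5q deletion of human myelodysplastic syndrome, and its pileups were 64 and 68 against 59 and 47. Without SOX17FNV replicate 2 its difference was 0.20, and without SOX17FNV replicate 1 it was 0.73 and passed (limma adjusted p 0.0154). Rps25, a protein used by viral internal ribosome entry sites, had 78 and 71 against 69 and 55, with 0.26 without SOX17FNV replicate 2. Rpl7 had 73 and 56 against 55 and 52, with 0.24 without SOX2 replicate 1. Rpl39l had 40 and 40 against 39 and 25, with 0.28 and 0.30 when SOX17FNV replicate 2 or SOX2 replicate 2 was left out and 0.72 when SOX17FNV replicate 1 was. The groups did not overlap at any of these 4 genes, and with all 4 libraries none passed the adjusted threshold, with limma adjusted p from 0.183 to 0.247.

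In the other direction the largest difference was at Rpl37a, a large subunit gene, with pileups of 42 and 25 with SOX17FNV against 54 and 41 with SOX2. The log2 difference was -0.38 (SE 0.196, limma adjusted p 0.391), and the groups did not overlap; without SOX17FNV replicate 2 it was -0.25. Rpl39, on the X chromosome, had 69 and 51 against 79 and 80, a difference of -0.27, or -0.49 and -0.15 without replicate 1 or 2 of SOX2, and by fold enrichment it turned to 0.20. Shared regions of the X chromosome as a whole were 0.935 times as high with SOX17FNV, and after centring by chromosome Rpl39 differed by -0.13. Rps23rg1, Rpl34-ps1 and Rps2 followed at -0.18, -0.17 and -0.15. In each setting the lead region was chosen anew, so a changed value can belong to another region of the gene. The lead region of Rps23rg1 differed by 0.050 to 0.49 when each library in turn was left out. With 5 kb around the span another region was its lead, at 0.23. For Rps2 the -0.15 belonged to the region at its 3′ end. Its start region, the lead in the span alone, differed by 0.084. Without SOX2 replicate 1 the lead region of Rps2 differed by 0.0062. The difference of Rpl34-ps1 stayed below 0 in the 4 settings without 1 library. The paralogs as a class had a median of -0.05, and the small and large subunit genes medians of 0.12 and 0.08.

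Genes that serve ribosome production in other ways were read by the same rule. All 19 translation factors of the 5′ TOP class were called in every library, with a median percentile of 93.1. Eef2 (elongation factor 2) was at 99.97 and Eef1a1 (elongation factor 1A) at 99.92, above every ribosomal protein gene. Of these 19, 1 passed limma's threshold: Vim, an intermediate filament gene kept in the list for its TOP sequence, was lower with SOX17FNV, with pileups of 42 and 36 against 77 and 61 and a log2 difference of -0.66 (SE 0.176, adjusted p 0.0335). The 16 nucleolar assembly genes had a median percentile of 95.7 and the 9 genes of RNA polymerase I and its factors 86.4, and 0 of either list passed. At an unadjusted p under 0.05 there were 2 and 1. Of the 78 mitochondrial ribosomal protein genes 0 passed, and 6 had an unadjusted p under 0.05. The mitochondrial list had a median log2 difference of 0.05.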

How the data were processed

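Genome-wide accessible chromatin was measured by ATAC-seq in 4 libraries, and each library's peak list was deposited by the authors. Per the submitters' processing notes, Bowtie2, SAMtools and MACS2 were used with the build mm10; the sources used here give no versions or filters and do not say whether reads were shifted for the enzyme. The deposited lines give a fold enrichment (ratio of summit to local background), the -log10 of the p-value and q-value, and a score, all as the authors' caller wrote them and used only within a list or through the pileup. The lowest deposited -log10 q in each list was 1.30.

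Pileups were solved from fold and p: a whole number gave the deposited -log10 p within 0.001 for 100% of lines, so depth was read from pileups and not from read totals. Peaks overlapping by at least 1 bp were merged, and lead regions were compared on log2(pileup / median of shared regions) with limma 3.58.1 (R 4.3.3; mean-variance trend, Benjamini-Hochberg over all shared regions, threshold 0.05). Python 3.11.15, NumPy 2.4.6, pandas 2.3.3 and SciPy 1.17.1 did the rest, and the steps were tested on simulated data. Intervals of the genes came from the RefSeq table for GRCm38.p6. Start and 3′ end were read for the 68 members with a promoter entry. The members, gene lists and tests were chosen with earlier results of these data known. Genes were named by a rule: the 10 highest and 10 lowest by percentile, those not called in a library, those with a group-specific region, those past the test, the 5 largest differences each way, and the fixed lists; other genes named with the 3′ end regions were chosen after their values were seen. Alternatives were the gene window, peak thresholds, list length, region definition, scaling, fold in place of pileup, the start region, fits without trend and without each library. Coordinates are mm10, counted from 1. Some genes are not reported by name here, and the counts include them.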

Additional observations from a re-analysis of the deposited data

How the results depend on the processing

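Members called in every library numbered 81 to 87 under the alternatives except for 58 at a -log10 q of at least 10. No share of all genes is given for these counts, so the lower number is not set against that of other genes. In all settings run 0 members were higher with SOX2, and by pileup the median percentile of the members stayed above that of all genes. SOX17FNV-only regions numbered 6 with 5 kb around the span, 7 at a -log10 q of at least 10, 2 with summits extended by 150 bp, and 2 to 8 without 1 library. SOX2-only regions numbered 3 in the span alone, 11 with 5 kb, 1 at a -log10 q of at least 5 or 10, 2 among the 50000 strongest peaks, and 7 to 20 without 1 library. No share of all regions is given for these counts of group-only regions. Members higher with SOX17FNV numbered 1 (Rps24) of 53 at a -log10 q of at least 10 (0.811% of all shared regions) and 0 to 3 without 1 library. The median difference ran from -0.0094 to 0.17 without 1 library. Non-overlapping groups with SOX17FNV above numbered 16 of 53 (30.2%) at a -log10 q of at least 10, against 21.2% of all lead regions, 3 by fold enrichment (3.49%, against 15.1%) and 22 to 55 without 1 library. Those with SOX2 above numbered 14 (16.3%) with extended summits and after quantile normalization, against 16.4% and 17.6%, 3 by fold enrichment (3.49%, against 15.3%) and 13 to 30 without 1 library. The median percentile was 90.3 in the span alone, 92.5 with 5 kb, 83.7 and 70.8 at a -log10 q of at least 5 and 10, 84.6 among the 50000 strongest peaks, 89.7 for the region over the start, 43.4 by fold enrichment, and 92.3 to 93.0 without 1 library, from 91.8; the corresponding medians of all genes were 80.5, 82.1, 70.1, 60.2, 70.6, 81.2 and 73.9. Separate end regions, chosen after seeing the data, numbered 9 and 27 in the 2 settings given with them (13.2% and 39.7%, against 3.01% and 6.31% of all genes with a listed start). In the other settings they numbered 29 to 45 (42.6% to 66.2%, against 6.12% to 13.1%). Directions reversed for Rps24 (-0.12) and Rpl39 (0.20) by fold enrichment. The lead region of Rps23rg1 was above 0 with 5 kb (0.23) and without 1 library (0.050 to 0.49). That of Rps2 was above 0 for the span alone and for the start region (0.084 in both). Without SOX2 replicate 1 it was 0.0062, with its other values without 1 library going down to -0.29. The lead region was chosen anew in each setting, so these values can belong to another region of the gene. The cause was not tested for any of these.

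Replicates of the groups share numbers. Same-numbered libraries deviated together over the shared regions (correlation 0.23), but the labels tie the numbers to no shared batch and there are only 2 pairs. With the replicate number as a block, 6 members were higher with SOX17FNV (Rpl3, Rpl4, Rps14, Rps24 and Rps25 among them), against 0 without it, and over all shared regions 1886 and 1788 passed in the 2 directions, against 516 and 710. Pileups limited the precision, with a median counting SE of 0.19 (log2) at the lead regions.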
